A study of Rattus norvegicus with 6 samples.

Results

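The interleukin-1 family and its receptors were followed here through 10 genes: the ligands Il1a, Il1b, Il18 and Il33, the antagonist Il1rn, the receptors Il1r1, Il1rap and Il1rl1, the decoy receptor Il1r2 and the protease gene Casp1. The members were chosen by gene symbol from the platform annotation, which gave 11 probes of 22517, 1 for each gene and 2 for Il33. These 10 genes stand among 13336 named genes on the array. The samples were granulation tissue, the new tissue that fills a healing wound, grown in cellulose implants with a hydroxyapatite coating, placed subcutaneously in rats of the Sprague-Dawley strain, 10 weeks of age. Day 1 implants were taken after 24 hours from rats 1, 2 and 3, and day 3 implants after 72 hours from rats 6, 4 and 7. Each of the 6 arrays came from a different rat, and all implants carried the coating, so no uncoated implant or unwounded skin stands beside them.

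IL-1 alpha and IL-1 beta are early alarm cytokines that act through the receptor encoded by Il1r1 together with the accessory chain encoded by Il1rap. Il1rn encodes an antagonist that occupies the same receptor without signalling, and Il1r2 encodes a decoy that binds the ligands but lacks a signalling domain. IL-33 acts through the receptor encoded by Il1rl1, also called ST2, and the IL-1 beta and IL-18 precursors are cut to their active forms by caspase-1, the product of Casp1. In wounds, neutrophils and macrophages are known sources of IL-1 beta, and fibroblasts, endothelial cells and epithelial cells are known sources of IL-33.

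By position, some of the members lie in clusters, while Il33, Il1rap, Il1rn, Il18 and Casp1 have no other member among their nearest genes. In the gene order of the rat assembly GRCr8, Il1a and Il1b are direct neighbours among protein-coding genes, and Il1rn lies elsewhere on the same chromosome beside Il36b, Il36rn and Il1f10. Il1r2, Il1r1 and Il1rl1 lie in a single run of neighbours that also holds Il1rl2, Il18r1 and Il18rap. RefSeq promoter sequences on GRCr8 were found for 9 of the 10 members, all but Il1r2. The 250 bases before the annotated start are shown for Il1a and Il1b, neighbours that both fell, and for Il1rl1, the member with the largest rise. All 3 are written 5′ to 3′ on the gene's strand, and capitals mark matches to TATAAA or TGANTCA.
Il1a promoter (chr3:136990018-136990267, minus strand): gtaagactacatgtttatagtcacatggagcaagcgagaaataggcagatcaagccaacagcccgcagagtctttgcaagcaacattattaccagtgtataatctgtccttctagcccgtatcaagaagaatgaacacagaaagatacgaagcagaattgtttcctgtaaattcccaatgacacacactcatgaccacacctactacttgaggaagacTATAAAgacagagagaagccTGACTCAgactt
Il1b promoter (chr3:137036582-137036831, minus strand): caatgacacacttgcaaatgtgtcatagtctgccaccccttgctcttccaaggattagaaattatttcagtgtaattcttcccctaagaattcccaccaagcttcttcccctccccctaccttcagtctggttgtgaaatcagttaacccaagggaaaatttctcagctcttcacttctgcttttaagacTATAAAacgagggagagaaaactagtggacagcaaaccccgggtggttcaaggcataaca
Il1rl1 promoter (chr9:50203388-50203637, plus strand): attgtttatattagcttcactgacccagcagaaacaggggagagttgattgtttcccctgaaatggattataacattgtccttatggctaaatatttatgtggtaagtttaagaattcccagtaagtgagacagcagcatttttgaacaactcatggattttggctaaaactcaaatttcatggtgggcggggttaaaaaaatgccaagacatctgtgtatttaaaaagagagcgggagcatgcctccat

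TATAAA, the core of the TATA box, was searched on the gene's strand and is held by 8.06% of the 33469 promoter windows of this length. It was found at -32 to -27 in Il1a and at -60 to -55 in Il1b, counted back from the annotated start. TGANTCA, the AP-1 motif, was searched on both strands and is held by 6.34% of windows, and among the 9 members it was found at -12 to -6 in Il1a. The kappa-B motif, the site bound by NF-kappaB, is held by 6.33% of windows on either strand, and it was found in Il1r1 at -135 to -126 and in Il1rap at -85 to -76. The motifs TTGCNNNAA of C/EBP factors and GAGGAAGT of PU.1, each searched on both strands and held by 8.17% and 2.04% of windows, were found in none of the 9 windows. These are matches of letters in a short window and do not show binding.

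The day 3 tissue held less Il1a, Il1b, Il1rn and Il1r2 RNA signal and more Il1rl1 and Il33 signal than the day 1 tissue. Il1rl1 was 6.48-fold higher at day 3 and Il33 was 2.66-fold higher. Il1a was 4.15-fold lower, Il1r2 3.56-fold lower, Il1rn 3.42-fold lower and Il1b 2.54-fold lower. Il18, Casp1 and Il1r1 did not pass the test, and Il1rap lay below the array median on all 6 arrays and was not tested. Each probe was tested with limma on normalized log2 signal, the change is day 3 minus day 1, and p-values were adjusted by Benjamini-Hochberg over all 11591 probes that passed a filter on dim signal.

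Of the 10 members, 9 passed that filter, which asks for a signal higher than the array median for 3 or more of the 6 arrays. Of these 9, 4 were lower at day 3 and 2 were higher, at an adjusted p under 0.05. Over all tested probes 15.2% were lower and 16.7% were higher, 31.9% in all. All 4 falls and both rises were at least 2-fold, as were called falls for 6.31% and called rises for 7.18% of tested probes. The days did not overlap for 6 of the 9 members, against 49.3% of all tested probes. The median change was -0.66 over the 9 members and -0.05 over all tested probes. Since the tissue was measured as a whole, fewer cells of a type and less RNA per cell cannot be told apart.

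**Figure D1:**
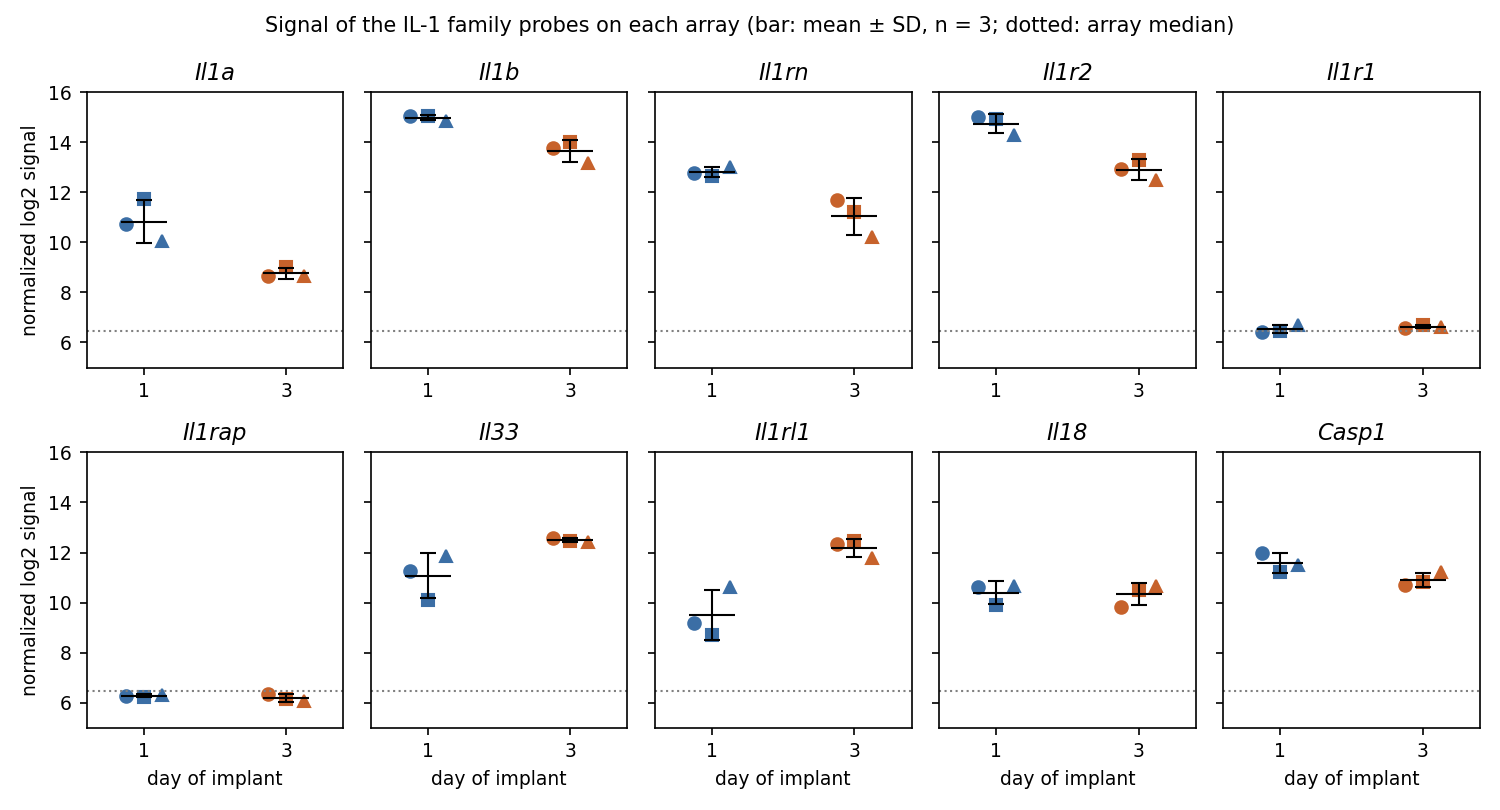
Normalized log2 signal (vertical axis) of each member by day of implant (horizontal axis), 1 point per array, with the mean and SD of n = 3 as bars and the array median of 6.47 as a dotted line. Circles, squares and triangles are rats 1, 2 and 3 at day 1 and rats 6, 4 and 7 at day 3, and Il33 is shown by its brighter probe. Il1a, Il1b, Il1rn and Il1r2 sit lower at day 3 with no overlap, Il33 and Il1rl1 sit higher, and Il1r1 and Il1rap lie near the median.

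Among the ligands, Il1b encodes IL-1 beta, a secreted cytokine. Its log2 signal was 15.04, 15.06 and 14.85 in day 1 rats 1, 2 and 3 and 13.77, 13.99 and 13.15 in day 3 rats 6, 4 and 7. All day 3 arrays lay below all day 1 arrays, and rat 7 was the lowest. The mean fell by 1.34, from 14.98 ± 0.12 to 13.64 ± 0.44 (SD, n = 3; limma adjusted p = 0.00542). The day 1 values lay close to 15.47, the highest log2 signal on any array, and whether the probe's response was compressed there was not tested.

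Il1a encodes IL-1 alpha, which is also active before cleavage and can act from dying cells. Its log2 signal was 10.71, 11.72 and 10.04 in day 1 rats 1, 2 and 3, and 8.65, 9.03 and 8.63 in day 3 rats 6, 4 and 7. The days did not overlap, and the day 1 rats spread far more widely (SD 0.85) than the day 3 rats (SD 0.22). The change was -2.05 ± 0.39 (SE, limma adjusted p = 0.00924). It ranged from -2.45 without day 1 rat 3 to -1.61 without day 1 rat 2.

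Il1rn, the receptor antagonist, had log2 signals of 12.78, 12.63 and 13.02 at day 1 (rats 1, 2 and 3) and of 11.69, 11.20 and 10.22 at day 3 (rats 6, 4 and 7). The spread was wider at day 3, where rat 7 was lowest, as it was for Il1b and Il1r2. The change was -1.77 ± 0.35 (SE, limma adjusted p = 0.0106). The antagonist and both IL-1 ligands therefore fell on the same arrays, and the question of whether they fell by unequal amounts was put to the difference between probes on the same array. That difference carries a meaning only in how it changes, because probes differ in brightness.

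Il1b minus Il1rn was 2.26, 2.43 and 1.83 in day 1 rats 1, 2 and 3 and 2.08, 2.79 and 2.93 in day 3 rats 6, 4 and 7. The days overlapped, and the shift of 0.43 gave p = 0.3 in an exact two-sided permutation test. It was 0.26 without day 1 rat 3 or day 3 rat 7 and 0.69 without day 3 rat 6. With 3 rats against 3, the exact permutation test cannot go below p = 0.1, so it could not pass 0.05 for any pair. Il1a minus Il1rn shifted by -0.28 (exact permutation p = 0.7), and it turned to 0.26 without day 1 rat 2 and to 0.11 without day 3 rat 6, and was -0.78 without day 1 rat 3 and -0.62 without day 3 rat 7. Il1b minus Il1a shifted by 0.71 (exact permutation p = 0.2), or by 0.30 without day 1 rat 2. Whether the ligands and the antagonist fell by unequal amounts was therefore not settled with these rats.

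**Figure D2:**
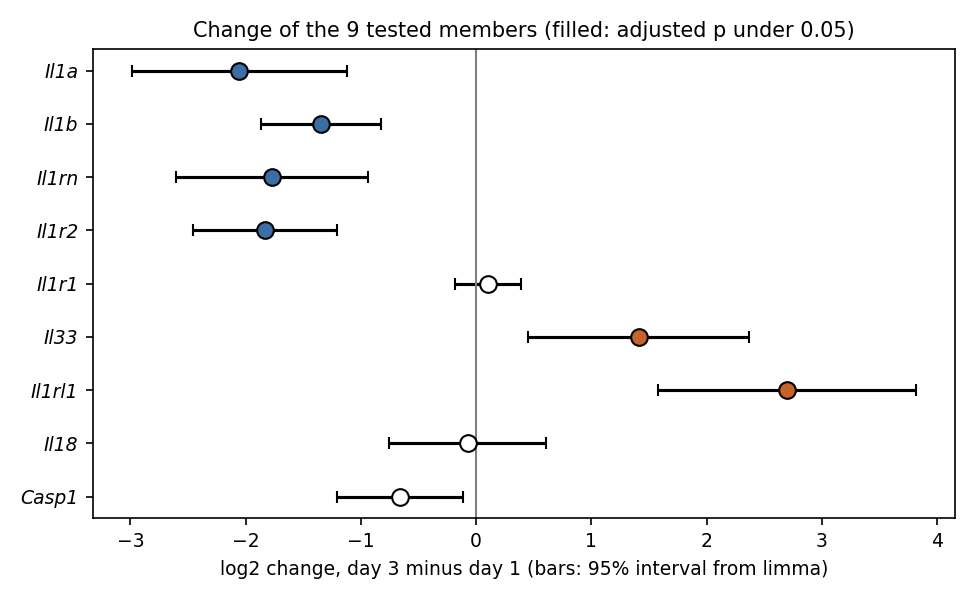
Change in log2 signal from day 1 to day 3 (horizontal axis) of the 9 tested members (vertical axis), with bars for the 95% interval from limma, 3 rats per day. Filled points passed an adjusted p of 0.05: Il1a, Il1b, Il1rn and Il1r2 lie between -2.05 and -1.34, Il33 lies at 1.41 and Il1rl1 at 2.70.

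Among the receptors of IL-1, Il1r2 encodes the decoy and is known from neutrophils and macrophages. Its log2 signal was 14.99, 14.93 and 14.28 in day 1 rats 1, 2 and 3, and 12.92, 13.30 and 12.49 in day 3 rats 6, 4 and 7. The days did not overlap. The mean fell by 1.83, from 14.73 ± 0.39 to 12.90 ± 0.41 (SD, n = 3; limma adjusted p = 0.00369), the smallest adjusted p among the members. As for Il1b, the day 1 values of rats 1 and 2 lay near the highest log2 signal of 15.47, and compression there was not tested.

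The signalling receptor chains gave little signal. Il1r1 read 6.43, 6.44 and 6.71 at day 1 and 6.58, 6.68 and 6.63 at day 3 (rats in the order 1, 2, 3 and 6, 4, 7), around the array median of 6.47. It passed the filter through 1 array of day 1 and all 3 of day 3. Its change was 0.10 with a 95% interval from -0.19 to 0.39 (limma adjusted p = 0.559). In a signal this dim a fall could hardly show, and a rise would be understated. Il1rap, the chain shared by the IL-1 and IL-33 receptors, read between 6.22 and 6.32 at day 1 and between 6.06 and 6.35 at day 3. A dim probe does not show that the transcript was absent.

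On the same arrays, Il1r1 minus Il1r2 was -8.56, -8.49 and -7.57 at day 1 and -6.35, -6.62 and -5.86 at day 3 (rats in the same order). The days did not overlap. Of the shift of 1.93, 1.83 was the fall of Il1r2 and 0.10 the change of Il1r1, so with so dim an Il1r1 probe the difference restates the fall of Il1r2 and does not compare the receptor with the decoy.

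The IL-33 arm moved the other way. Il1rl1, the IL-33 receptor gene, read 9.18, 8.69 and 10.62 in day 1 rats 1, 2 and 3 and 12.35, 12.45 and 11.78 in day 3 rats 6, 4 and 7. Every day 3 array was above every day 1 array, and day 1 rat 3 was the highest of its day. The change was 2.70 ± 0.47 (SE, limma adjusted p = 0.00693), or 3.25 without day 1 rat 3 and 2.29 without day 1 rat 2. Il1rl1 gives both a membrane receptor and a soluble form that acts as a decoy, and which of them the probe reads was not examined here.

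Il33 encodes IL-33, a cytokine stored in the nucleus of its source cells. Its brighter probe (ILMN_1367779) read 11.27, 10.11 and 11.87 in day 1 rats 1, 2 and 3 and 12.59, 12.46 and 12.43 in day 3 rats 6, 4 and 7. The day 3 rats were nearly alike (SD 0.09), whereas the day 1 rats spread widely (SD 0.90). The change was 1.41 ± 0.40 (SE, limma adjusted p = 0.0368). This call was lost when rat 1 (limma adjusted p = 0.0833) or rat 6, 4 or 7 (0.11, 0.0885 and 0.0959) was left out, and the change was 0.92 without day 1 rat 2 and 1.80 without day 1 rat 3. The other Il33 probe (ILMN_1530360) lay below the median on all 6 arrays, at 6.10 ± 0.07 on day 1 arrays and 6.16 ± 0.03 on day 3 arrays (SD, n = 3), and showed no such difference.

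Il1rl1 minus Il33 was -2.09, -1.41 and -1.26 at day 1 and -0.25, -0.01 and -0.65 at day 3 (rats in the order 1, 2, 3 and 6, 4, 7). The days did not overlap, and the receptor gene shifted by 1.29 relative to the ligand gene (exact permutation p = 0.1, the smallest possible here; 0.2 adjusted over the 6 pairs of members compared).

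Il18 and Casp1 differed less between the days. Il18 encodes a cytokine that promotes interferon-gamma production, and it read 10.63, 9.89 and 10.68 at day 1 and 9.83, 10.50 and 10.66 at day 3 (rats in the order 1, 2, 3 and 6, 4, 7). The days overlapped throughout. The change was -0.07 with a 95% interval from -0.75 to 0.61 (limma adjusted p = 0.869). Relative to Il1b on the same arrays, Il18 shifted by 1.27 with no overlap of the days (exact permutation p = 0.1; 0.2 adjusted over the 6 pairs).

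Casp1 read 11.99, 11.22 and 11.50 at day 1 and 10.69, 10.82 and 11.22 at day 3, in the same order of rats. Day 1 rat 2 and day 3 rat 7 had the same value to 4 decimals, so the days touched. The change was -0.66 with a 95% interval from -1.21 to -0.12 (limma adjusted p = 0.067). It passed the threshold without day 1 rat 2 (change -0.84, adjusted p = 0.0385).

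Other genes of the pathway were taken from 5 lists that hold 64 distinct genes, of which 44 were tested, 20 lower and 4 higher at day 3, where 15.2% of all tested probes were lower and 16.7% higher. Leaving out rat 1, rat 6 or rat 7 lowered the count of higher genes to 2. Of the other ligands and receptors of the axis, 3 of 11 listed genes were tested. Il36b, an IL-36 cytokine gene near Il1rn in the gene order, fell 3.99-fold, from 10.53 ± 0.34 to 8.53 ± 0.34 (SD, n = 3; limma adjusted p = 0.00179). Sigirr, an inhibitory receptor of the family, rose 2.01-fold (limma adjusted p = 0.0389), and leaving out rat 1, 6, 4 or 7 gave adjusted p = 0.0521, 0.114, 0.0921 and 0.104. Il18bp, which encodes a soluble inhibitor of IL-18, had a change of 0.01. Il18r1 and Il1rl2, neighbours of Il1rl1 in the gene order, lay below the filter.

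Of 8 tested adaptors and kinases that carry the signal from the receptors of the family, 4 fell and none rose, with a median change of -0.73. Among all tested probes 15.2% were lower and 16.7% higher, with a median change of -0.05. Myd88, the adaptor shared with Toll-like receptors, fell 2.53-fold, from 11.60 ± 0.28 to 10.27 ± 0.10 (SD, n = 3; limma adjusted p = 0.00206). Irak2, a kinase-family member of the same signalling complex, fell 2.95-fold (limma adjusted p = 0.00142), and Irak3, an inhibitor of that complex, fell 1.80-fold (limma adjusted p = 0.00669). Tollip, another inhibitor, fell 1.67-fold (limma adjusted p = 0.0258), and leaving out rat 1, 4 or 7 gave adjusted p = 0.0641, 0.0891 and 0.0824. Irak1, Irak4, Traf6 and Tab2 had changes between -0.72 and -0.27 and did not pass.

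Among 10 tested genes of the inflammasome, the complex that activates caspase-1, and of cytokine release, 3 fell and 1 rose, a share not far from the 31.9% called over all tested probes, with a median change of -0.26. Mefv, which encodes the sensor pyrin of myeloid cells, fell 7.06-fold, from 12.21 ± 0.48 to 9.39 ± 0.31 (SD, n = 3; limma adjusted p = 0.00105). Nlrp3, the best-known inflammasome sensor, fell 4.04-fold (limma adjusted p = 0.00823), and the adaptor gene Pycard fell 1.72-fold (limma adjusted p = 0.0115). Gsdmd, which encodes the pore through which IL-1 beta leaves cells, rose 2.12-fold (limma adjusted p = 0.00274). Casp4, an inflammatory caspase gene next to Casp1, had a change of -0.84 (limma adjusted p = 0.0548).

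Of 7 tested proteases that can cut IL-1 family ligands outside the inflammasome, 2 fell and none rose, a share near the 31.9% called over all tested probes, with a median change of -0.06. These were Elane, neutrophil elastase, which fell 5.75-fold (limma adjusted p = 0.00382), and Mmp9, a gelatinase of neutrophils and other cells, which fell 5.32-fold (limma adjusted p = 0.00476). Cma1, mast cell chymase, had a change of 0.16.

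Of 17 tested genes that IL-1 commonly induces, 10 fell and 2 rose, with a median change of -1.14. Among all tested probes 15.2% were lower and 16.7% higher, with a median change of -0.05, so the share that rose was not above that of all probes. Ptges, which makes prostaglandin E2 in inflamed tissue, fell by 2.34 (limma adjusted p = 0.000352). Nos2, which makes nitric oxide in activated macrophages, fell by 2.08 (limma adjusted p = 0.00272). Vcam1, an adhesion molecule of activated endothelium and stromal cells, rose 4.38-fold, from 8.07 ± 0.78 to 10.20 ± 0.24 (SD, n = 3; limma adjusted p = 0.00657). Icam1, a related adhesion molecule, fell by 1.66, with day 1 values from 12.38 to 12.51 and day 3 values from 10.73 to 10.89. Lcn2, an iron-carrier binding protein, was the other gene that rose (change 1.37, limma adjusted p = 0.023), and leaving out rat 1, 2, 6 or 7 gave adjusted p = 0.0801, 0.0659, 0.0783 and 0.0833. Many other signals induce these genes too.

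**Figure D3:**
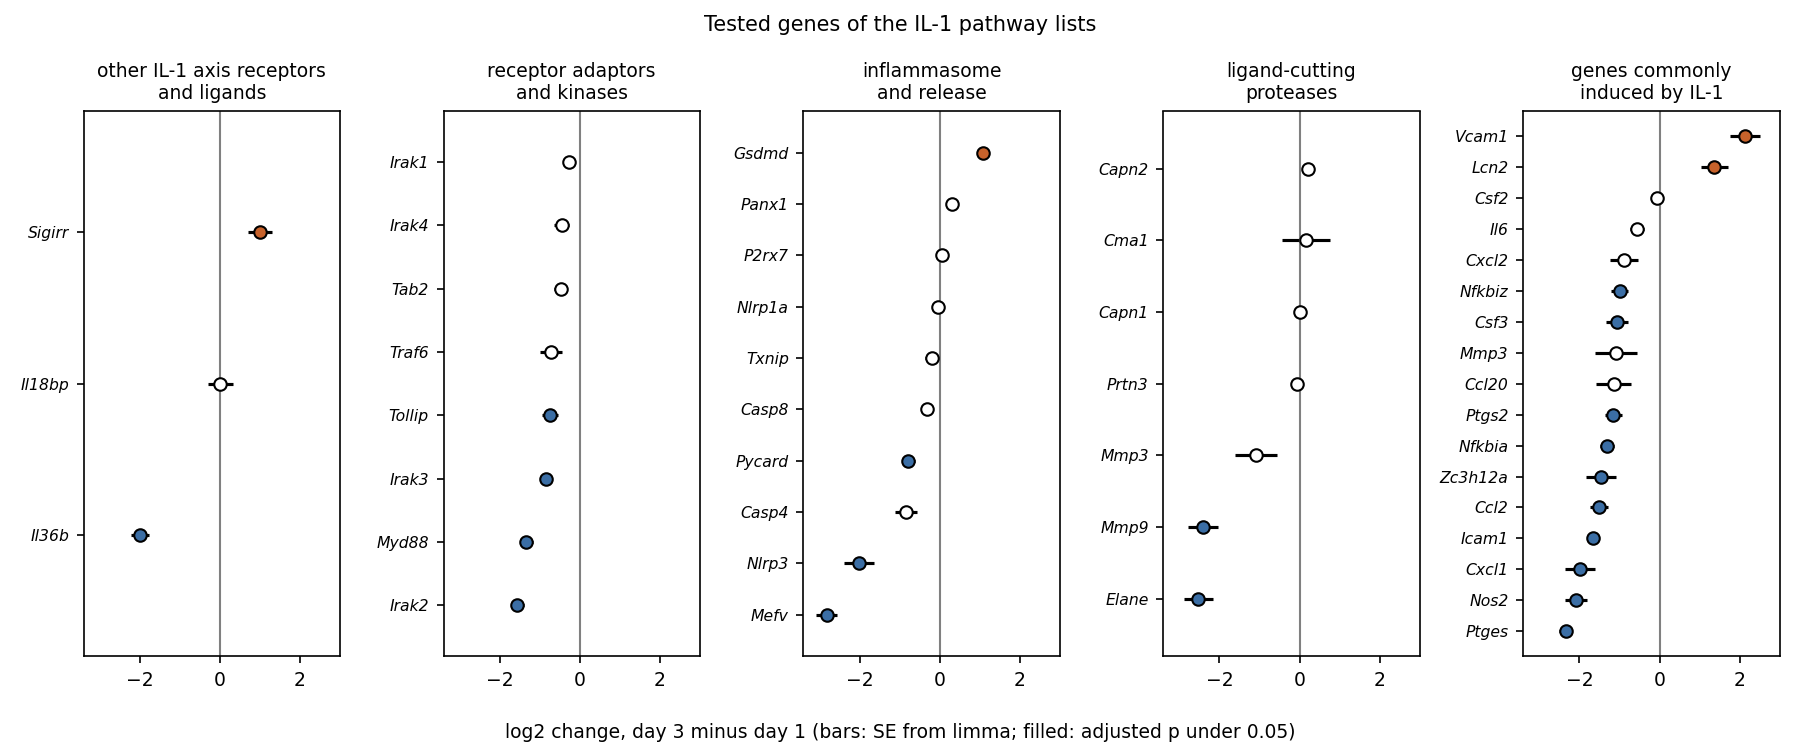
Change in log2 signal from day 1 to day 3 (horizontal axes) of the tested genes of the 5 pathway lists (vertical axes), with bars for the SE from limma, 3 rats per day. Filled points passed an adjusted p of 0.05: most of them lie left of 0, led by Mefv at -2.82, and Sigirr, Gsdmd, Vcam1 and Lcn2 lie right of it.

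Markers of several cell types moved with the members. Of 8 tested neutrophil markers, 7 fell and none rose, with a median change of -2.37, and the log2 of their summed signal went from 14.76 to 15.08 at day 1 down to 12.46 to 12.99 at day 3. Over all tested probes 15.2% were lower and 16.7% were higher. S100a9 and Ltf, also neutrophil genes, had probes below the filter. Il1b, Il1r2, Il1rn and Il1a fell on the same arrays as these markers, and the part of neutrophil content in their fall was not tested. Within day 3, Il1b, Il1r2 and the neutrophil list were highest in rat 4 and lowest in rat 7. Within day 1, Il1rn was highest in rat 3, where the neutrophil list was lowest.

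Il1rl1 and Il33 rose with the fibroblast list, in which all 9 tested markers rose, where 16.7% of all tested probes were higher. They also rose with the endothelial list, in which all 5 rose. The log2 of the summed fibroblast signal went from between 14.08 and 15.77 at day 1 to between 17.00 and 17.18 at day 3, and that of the endothelial list from between 11.28 and 12.14 to between 13.06 and 13.30. Of 7 tested macrophage markers, 5 rose and none fell, where 16.7% of all tested probes were higher and 15.2% lower. The log2 of their summed signal was 11.90 to 13.56 at day 1 and 14.11 to 14.90 at day 3. On the day 1 arrays Il33, Il1rl1 and the fibroblast, endothelial and macrophage lists were all highest in rat 3 and lowest in rat 2. The T, B and NK cell list, in which no marker rose, had the same order in day 1. Within day 3, Il1rl1 was highest in rat 4, where the fibroblast and macrophage lists were lowest, and Il33 was highest in rat 6, as were the fibroblast and endothelial lists. The part of these cell types in the rise of Il1rl1 and Il33 was not tested.

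Mast cells are known to carry the IL-33 receptor. Of 6 tested mast cell markers none rose and 1, Hdc, fell, where 15.2% of all tested probes were lower. Their summed log2 signal was 10.78 to 12.96 at day 1 and 10.23 to 10.94 at day 3. Kit and Ms4a2, which define the cell type, had probes below the filter. On average the 6 markers were highest in day 1 rat 3, where Il1rl1 was the highest of its day and lower than on any day 3 array. The part of mast cells in the Il1rl1 signal was not tested. Of 6 tested T, B and NK cell markers none rose and 1 fell, a share near the 15.2% of all tested probes that were lower. Of the keratinocyte list, 1 of 8 genes, Trp63, was tested, and Krt14, Krt10 and Krt1 lay below the filter. Trp63 was at least 1.14-fold higher at day 3 (limma adjusted p = 0.0169). It passed the filter only through the 3 arrays of day 3, where it was high, so no conclusion is drawn from its call. Of 3 tested platelet markers 1, Ppbp, fell and none rose, a share near the 31.9% called over all tested probes. Ppbp passed the filter only through the 3 arrays of day 1, where it was high.

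Skeletal muscle signal was high in rat 3 of day 1 and rat 6 of day 3, where the 7 tested muscle markers lay on average 3.07 and 2.58 above their mean over the 6 arrays. Without both arrays, the same counts of 4 lower and 2 higher members were called, with changes of -2.39 for Il1a, -1.48 for Il1b, -2.00 for Il1rn, -2.07 for Il1r2, 3.18 for Il1rl1 and 1.75 for Il33.

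**Figure D4:**
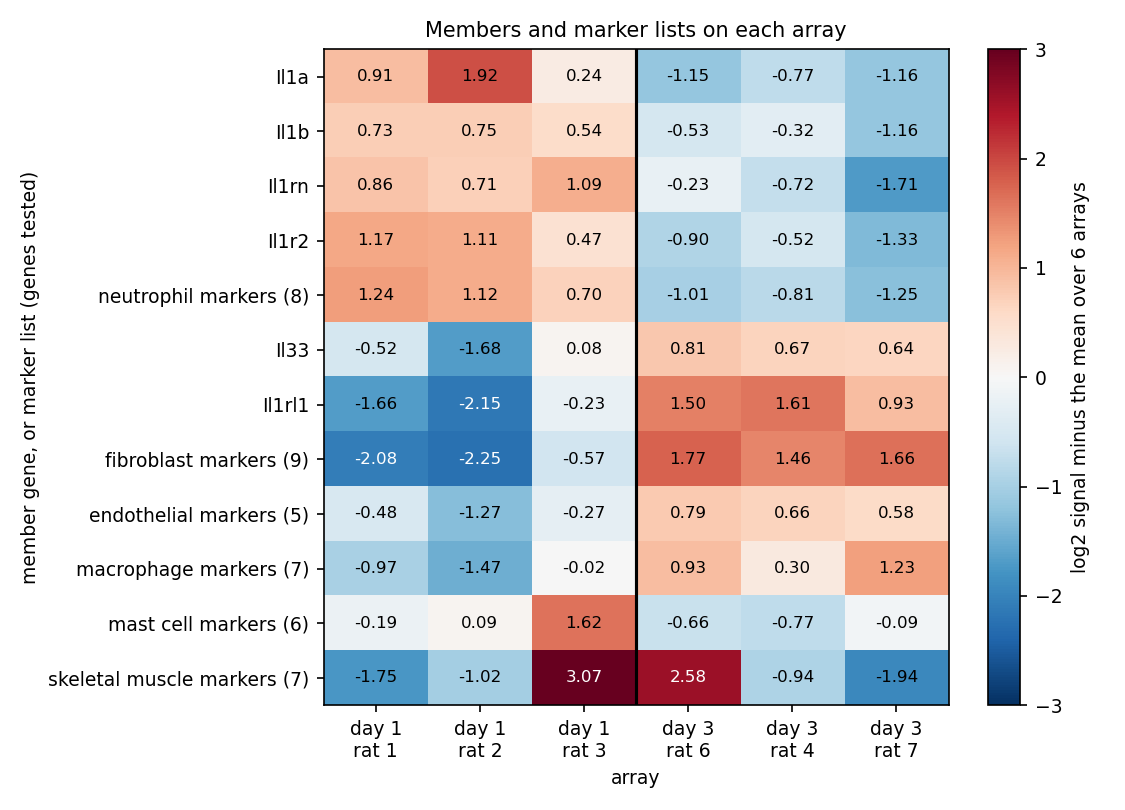
Log2 signal minus the gene's mean over the 6 arrays (colour and printed value) on each array (horizontal axis) for the 6 called members and for the average of each marker list (vertical axis, number of tested genes in brackets). Between the days the neutrophil list falls with Il1a, Il1b, Il1rn and Il1r2. The fibroblast, endothelial and macrophage lists rise with Il33 and Il1rl1. Within a day the orders of the rats differ in part. The mast cell list peaks at 1.62 in day 1 rat 3, and the muscle list is high in day 1 rat 3 and day 3 rat 6.

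Over the 6 arrays, which share the difference between the days, Il1b correlated with Il1r2 at Pearson r = 0.98, with Il1rn at 0.95 and with Il1a at 0.90, and Il1rl1 correlated with Il33 at 0.94. Among 8343 other tested genes, those most like Il1b were Stfa2l1 (a stefin A-like gene, r = 0.997), Ubtd1 (0.993) and Slfn1 (0.992), and 179 genes had r above 0.95. Those most like Il1rn were Mxd1 (0.987), Limch1 (0.987) and Gm2a (0.985). Those most like the dim Il1r1 signal were M6pr (0.988), Tomm70 (0.988) and Cwc27 (0.979). These are descriptions over n = 6 arrays.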

How the data were processed

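Total RNA of 6 implants was amplified from 100 ng, labelled with biotin and read on 1-colour Illumina bead arrays, per the labels' protocols. The deposited intensity values, on a linear scale, had already been quantile normalized: sorted columns differ from their mean by at most 0.0333%. Limma is listed in the submitters' processing notes, without its role; a background correction by the authors is not stated. A second deposited table was not used, because the headers of its 12 per-sample columns match no label.

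Normexp with offset 50, log2 and the fits (lmFit, eBayes, two-sided) used limma 3.58.1 in R 4.3.3; folds of dim probes are understated. Permutation tests used scipy 1.17.1. The number of arrays limits precision, and p-values set the difference between the days against the spread between rats. Genes were named from the platform annotation, in lists by the brightest probe that passed the filter. Fits were tested on simulated data. Alternatives were 2 background settings, 2 filters, cyclic loess, array weights, an intensity trend, a stricter threshold, probe averaging and left-out arrays.

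Members and lists were chosen with earlier results of these data known. The rule for named genes takes all members, the 3 called genes of each pathway list with the largest change (the smallest p where none was called), and the 3 genes most like Il1b, Il1rn and Il1r1. Others, such as Icam1, Lcn2, Tollip and Casp4, were named after their values were seen.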

Additional observations from a re-analysis of the deposited data

How the results depend on the processing

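The count of members lower at day 3 lay between 3 and 5 under 16 alternatives, and Il1a, Il1b, Il1r2 and Il1rl1 passed in all of them, with adjusted p of at most 0.0419, 0.0274, 0.0205 and 0.034. Il1rn missed only an adjusted p of 0.01. The count of higher members was 1 with no filter, where Il33 had adjusted p = 0.0648, and 1 at an adjusted p under 0.01. It ranged from 1 to 2 when each rat was left out. For the pathway genes, the count of higher genes was 2 at an adjusted p under 0.01 and ranged from 2 to 4 over left-out rats, where that of lower genes ranged from 16 to 26. Over all 16 alternatives these counts ranged from 2 to 5 and from 15 to 27. Casp1 passed with array weights (change -0.98). The Il18 change ranged from -0.33 to 0.18 over left-out rats, with 0.04, 0.07 and 0.18 when rat 1, 3 or 6 was dropped, and turned to 0.32 without both arrays with high muscle signal. Il1a minus Il1rn ranged from -0.78 to 0.26 over left-out rats, with 0.26 without day 1 rat 2 and 0.11 without day 3 rat 6. Il1b minus Il1rn ranged from 0.26 to 0.69 and Il1b minus Il1a from 0.30 to 1.03 in the same way. The cause was not tested. The count of all called probes, 3694, was 6123 with array weights, 1593 at an adjusted p under 0.01 and 2016 to 4902 over left-out rats. No paired analysis was possible because the rats of the 2 days carry different numbers. Il1r1, Il1rap and the second Il33 probe were too dim for a fall to show, and a rise in them would be understated.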
